A study of Mus musculus with 4 samples.

Results

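The aminoacyl-tRNA synthetases were followed in RNA-seq of mouse peritoneal macrophages. The set held 36 genes chosen by name, 20 for cytosolic enzymes and 16 for mitochondrial ones, out of 23735 loci in the deposited table. Each member matched 1 locus, and no member shared its locus with another gene symbol. The Ch25h_KO group came from ApoE-/-/Ch25h-/- mice and the Ch25h_WT group from ApoE-/-/Ch25h+/+ mice, with 2 libraries each. Both genotypes were labelled C57BL/6, 6 weeks old and ApoE-/-, so by the labels the groups differ in Ch25h. The transcript values below show that they differ in Apoe transcript too. Ch25h encodes cholesterol 25-hydroxylase, which makes 25-hydroxycholesterol. All macrophages had been elicited with 3% thioglycolate, an irritant given 3 days earlier, and were cultured before RNA was taken. The submitters give 12 mice per group in biological duplicate, without saying which mice went into which library, so a p-value here reflects how far duplicate libraries differ and may be partly technical. Values were taken as FPKM, sequenced fragments scaled to transcript length and to library size, although the deposited header names no unit. How library size was scaled has no source here.

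A synthetase joins an amino acid to its tRNA, the step that sets the meaning of the genetic code. Most amino acids have separate nuclear genes for a cytosolic and a mitochondrial enzyme, and Gars and Kars each serve both compartments. Several cytosolic synthetases sit in a multi-synthetase complex held together by the scaffold proteins Aimp1, Aimp2 and Eef1e1, and the rest work outside it. When amino acids run short or the endoplasmic reticulum is stressed, phosphorylation of eIF2 alpha raises translation of the transcription factor ATF4. ATF4 then induces genes of amino acid supply, among them many cytosolic synthetases, through sites known as C/EBP-ATF response elements.

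The libraries were close in depth, with an implied 9370000 to 12200000 fragments each. Ch25h was 4.25 and 5.53 FPKM in the Ch25h_KO libraries, against 63.3 and 65.3 FPKM in the Ch25h_WT libraries. Apoe transcript was 3683 and 3373 FPKM in Ch25h_KO and 614 and 610 FPKM in Ch25h_WT. The groups therefore differ in the level of Apoe transcript as well, although both carry the ApoE-/- label. Whether the Apoe allele itself differs was not tested. Changes that go with Ch25h and changes that go with Apoe cannot be told apart here. All 8 macrophage markers were detected, and their summed level was 28800 and 28100 FPKM in Ch25h_KO and 26730 and 27670 FPKM in Ch25h_WT. Their median level went the other way, at 425 and 437 FPKM in Ch25h_KO and 452 and 459 FPKM in Ch25h_WT. Neutrophil markers, with 9 of 10 on the table, summed to 117 and 117 FPKM in Ch25h_KO and 72.3 and 83.1 FPKM in Ch25h_WT. Only 2 of these markers were tested. The median level of the list was 0.492 and 0.428 FPKM in Ch25h_KO and 0.507 and 0.665 FPKM in Ch25h_WT. The higher sum therefore does not describe the list as a whole. The 11 genes of cell handling and stress summed to 1301 and 1222 FPKM in Ch25h_KO, against 1109 and 1101 FPKM in Ch25h_WT. Of the 10 tested, 4 (40%) were higher at unadjusted p under 0.05, against 9.38% of all tested loci, and 0 were lower. Their median log2 change was 0.16, with 3 negative. Of the 10, 1 was higher with limma adjusted p under 0.05 (0.035), where 0.437% of all tested loci had adjusted p under 0.05. B cell markers, with 7 of 8 on the table, summed to 286 and 302 FPKM in Ch25h_KO and 321 and 324 FPKM in Ch25h_WT. The 10 mast cell and basophil markers summed to 381 and 397 FPKM in Ch25h_KO and 395 and 408 FPKM in Ch25h_WT, which overlap, but their median level was 14.7 and 13.5 FPKM in Ch25h_KO and 21.6 and 21.9 FPKM in Ch25h_WT. Of the 9 tested, 6 (66.7%) were lower in Ch25h_KO at unadjusted p under 0.05, against 11.5% of all tested loci. On the higher side was 1 (11.1%, against 9.38% of all tested loci), and the median log2 change was -0.32. Erythroid and platelet markers summed to 46.6 and 48.4 FPKM in Ch25h_KO and 32.4 and 35.4 FPKM in Ch25h_WT, with Gp9 at 0. Dendritic cell markers summed to 52.5 and 48.9 FPKM in Ch25h_KO and 43.9 and 42.9 FPKM in Ch25h_WT. Their median level was instead lower in Ch25h_KO, at 0.206 and 0.298 FPKM, against 0.584 and 0.313 FPKM in Ch25h_WT. Fibroblast and mesothelial markers were low, at 4.997 and 4.152 FPKM in Ch25h_KO and 1.61 and 1.39 FPKM in Ch25h_WT. T and NK cell markers summed to 4.72 to 6.87 FPKM and eosinophil markers to 2.09 to 2.91 FPKM over the libraries, with Epx at 0. The part of these shifts in the synthetase values was not tested. In bulk RNA, fewer cells of a type and less RNA per cell cannot be told apart.

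Cytosolic synthetases were far more abundant per length than mitochondrial ones. The mean over the 4 libraries ran between 19.5 and 142 FPKM among the 20 cytosolic genes, with a median of 42.1 FPKM. Among the 16 mitochondrial genes it ran between 1.60 and 62.0 FPKM, with a median of 3.13 FPKM. The 4 most abundant transcripts were Nars, Aars, Gars and Sars, which charge asparagine, alanine, glycine and serine, at means of 142, 126, 117 and 71.1 FPKM. Their order was the same in every library, with no overlap between neighbours within a group. Below them the steps were small, and neighbours such as Tars (59.0 to 61.5 FPKM over the 4 libraries) and Rars (55.0 to 60.1 FPKM) overlapped. Dars, for aspartate, was the lowest cytosolic member at 19.5 FPKM. The 4 lowest of all were Vars2, Nars2, Wars2 and Mars2, the mitochondrial enzymes for valine, asparagine, tryptophan and methionine, at 1.60, 1.80, 1.86 and 2.03 FPKM. All 36 members passed the filter of a mean of at least 1 FPKM.

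**Figure D1:**
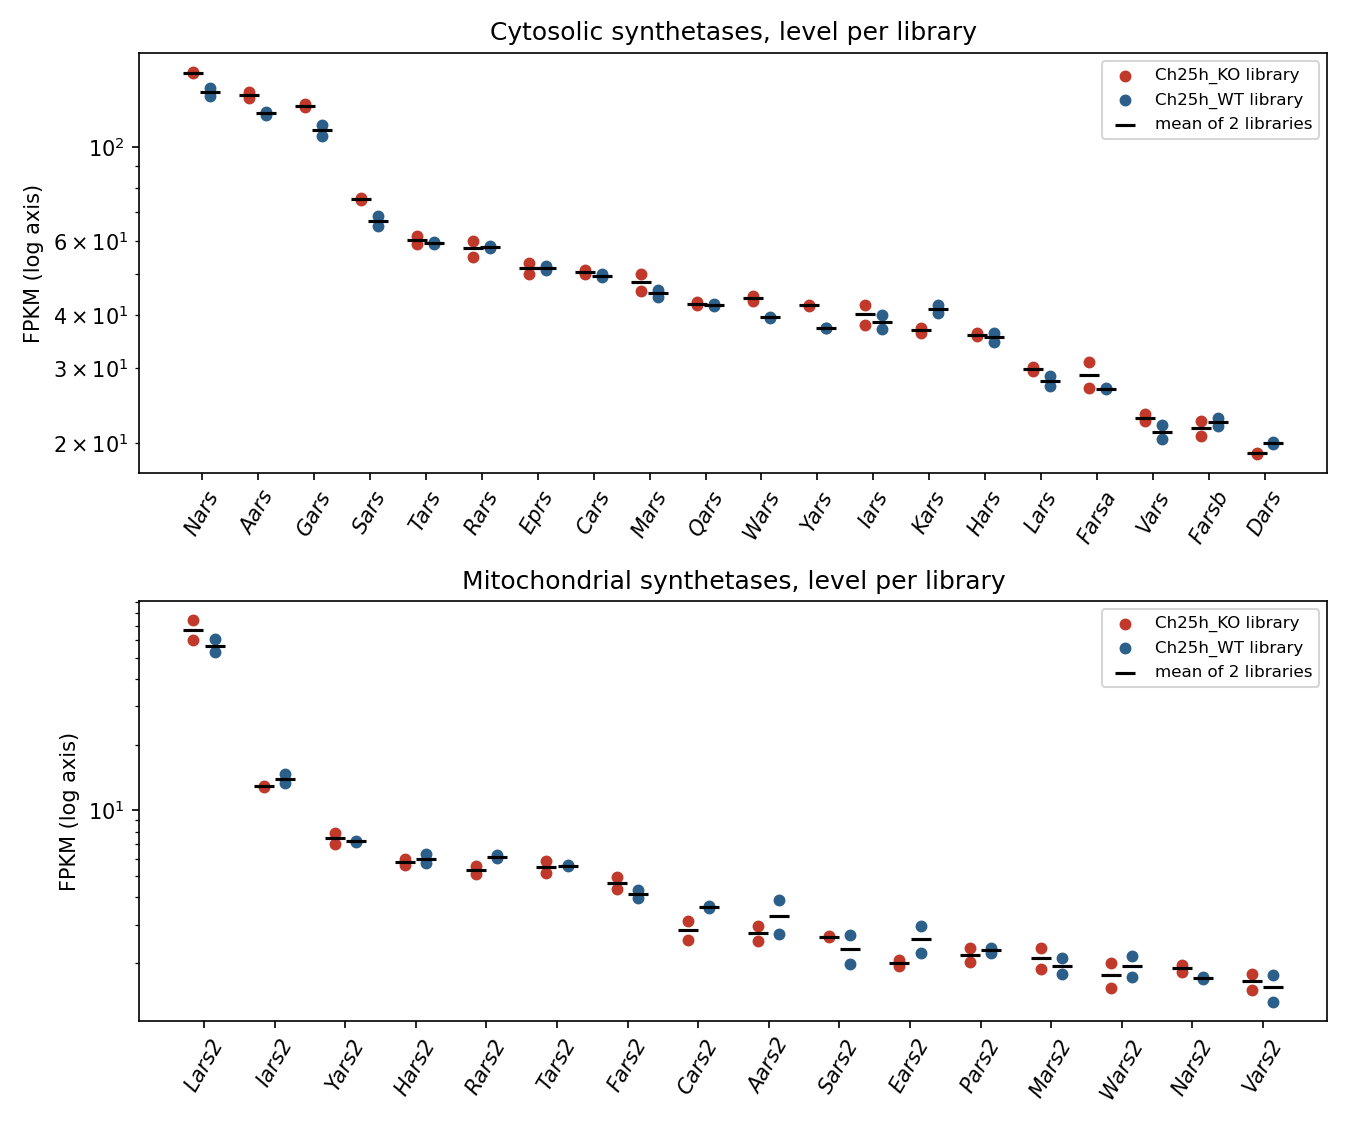
FPKM of each synthetase in each library on a log axis, cytosolic genes above and mitochondrial genes below, ordered by mean. Red points are the 2 Ch25h_KO libraries, blue points the 2 Ch25h_WT libraries, and black bars the group means; Nars leads the cytosolic panel at 142 FPKM and Lars2 stands apart in the mitochondrial panel at 62.0 FPKM.

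None of the 36 members passed the test between genotypes (limma on log2(FPKM + 1), Benjamini-Hochberg adjusted p under 0.05 over 10074 loci), where 0.437% of all tested loci did. The smallest adjusted p of a member was 0.173, for Yars. At unadjusted p under 0.05 there were 9 members, or 25.0%, close to the 20.9% of all tested loci. On the Ch25h_KO-higher side stood 6 of 20 cytosolic genes and 0 of 16 mitochondrial genes, against 9.38% of all loci. On the Ch25h_KO-lower side stood 1 of 20 cytosolic and 2 of 16 mitochondrial genes (the mitochondrial share being 12.5%), against 11.5% of all loci. The median log2 change was 0.070 over the cytosolic and -0.030 over the mitochondrial members, against -0.014 over all tested loci, and the mitochondrial median was 0.0081 without Ch25h_KO replicate 2. Both Ch25h_KO libraries lay above both Ch25h_WT libraries for 9 cytosolic and 2 mitochondrial members (23.4% of all loci), and below them for 2 cytosolic and 4 mitochondrial members (30.3% of all loci). The difference between the compartments was not tested. With any single library left out, counts at unadjusted p under 0.05 were 0 to 2 members on the higher side (0 without Ch25h_KO replicate 1 or Ch25h_WT replicate 1) and 1 on the lower, in fits where a lone library is assumed to vary like the other group.

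The 6 cytosolic genes at unadjusted p under 0.05 on the higher side were Gars, Yars, Sars, Nars, Wars and Aars, and they were 1.11 to 1.14 times as high in Ch25h_KO by mean FPKM. Gars, for glycine in both compartments, had 124 and 126 FPKM in the Ch25h_KO libraries and 106 and 113 FPKM in the Ch25h_WT libraries. Its log2 change was 0.19 (95% interval 0.039 to 0.35, limma adjusted p = 0.184), and of the alternatives tried it passed only with the trend and robust settings of limma (adjusted p = 0.031, over a range of 0.031 to 0.443). Yars, for tyrosine, had 42.1 and 42.5 FPKM in Ch25h_KO and 37.3 and 37.4 FPKM in Ch25h_WT. Its duplicates were close within each group, and its log2 change was 0.18 (95% interval 0.041 to 0.31, limma adjusted p = 0.173). Sars, for serine, had 75.6 and 74.9 FPKM in Ch25h_KO and 65.2 and 68.8 FPKM in Ch25h_WT (log2 change 0.17). Nars, the most abundant synthetase, had 149.97 and 148.99 FPKM in Ch25h_KO and 137 and 132 FPKM in Ch25h_WT (log2 change 0.15). Aars, which also clears mischarged serine and glycine, had 131 and 135 FPKM in Ch25h_KO and 119 and 121 FPKM in Ch25h_WT (log2 change 0.14). In each of these genes both Ch25h_KO libraries lay above both Ch25h_WT libraries. Across the 20 cytosolic genes, which are not independent, more abundant transcripts tended to have more positive log2 changes (Spearman rho 0.423, Pearson r 0.476 on log2 levels). The most abundant of them, Nars, Aars, Gars and Sars, are among the genes just named as higher. Across the 16 mitochondrial genes the values were -0.0088 and 0.275. The size of the change regardless of sign was not compared with the level.

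Wars, for tryptophan, is known for its induction by interferon gamma. It had 43.3 and 44.4 FPKM in Ch25h_KO and 39.4 and 39.7 FPKM in Ch25h_WT (log2 change 0.15, 95% interval 0.0077 to 0.28, limma adjusted p = 0.225). Of 14 tested interferon gamma responsive genes, 6 (42.9%) had unadjusted p under 0.05 on the higher side, against 9.38% of all loci. The median log2 change was 0.13. The 14, the 6 and the median all include Cxcl9, which the filter let in only because it is high in Ch25h_KO. The share is therefore raised in part by the filter. The list held 1 pass, against 0.437% of all loci. The gene that passed was Cxcl9, a T cell chemokine, at 1.88 and 1.80 FPKM in Ch25h_KO and 0.293 and 0.366 FPKM in Ch25h_WT (limma adjusted p = 0.0117). Cxcl9 cleared the filter of a mean of 1 FPKM only through the group where it is high, and it was below the filter without either Ch25h_KO library, so its pass supports nothing about the list. It did not pass without Ch25h_WT replicate 1 or 2 (adjusted p = 0.0828 and 0.0761). The GTPase gene Gbp2 had 81.0 and 90.5 FPKM in Ch25h_KO and 50.05 and 52.09 FPKM in Ch25h_WT (limma adjusted p = 0.052). Irf1, a transcription factor of the interferon gamma response, had a ratio of 0.956.

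The remaining cytosolic genes outside the complex showed smaller differences. Vars, for valine, had 22.6 and 23.4 FPKM in Ch25h_KO and 22.1 and 20.5 FPKM in Ch25h_WT (log2 change 0.11). Farsa and Farsb encode the subunits of the phenylalanine enzyme, and their values pointed apart. Farsa had 31.10 and 26.95 FPKM in Ch25h_KO and 26.86 and 26.94 FPKM in Ch25h_WT, while Farsb had 22.5 and 20.8 FPKM in Ch25h_KO and 22.9 and 21.9 FPKM in Ch25h_WT. Within Ch25h_KO both subunits were higher in replicate 1, and neither separated the groups beyond the spread between libraries. Cars, Tars and Hars, for cysteine, threonine and histidine, had log2 changes between 0.020 and 0.025. Summed over the 12 genes outside the complex, the level was 789 and 789 FPKM in Ch25h_KO, against 721 and 725 FPKM in Ch25h_WT. The largest terms of this sum are Nars, Aars, Gars and Sars, already named above as higher in Ch25h_KO, so it largely restates those genes.

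For the 8 enzymes of the multi-synthetase complex the summed level was 322.5 and 329 FPKM in Ch25h_KO and 325.0 and 326 FPKM in Ch25h_WT, so the groups overlapped. Their median log2 change was 0.0040, against 0.13 for the 12 genes outside the complex, and this difference was not tested. Kars, which makes lysyl-tRNA for both compartments, was the furthest on the lower side among the cytosolic genes, with 36.5 and 37.3 FPKM in Ch25h_KO and 40.6 and 42.4 FPKM in Ch25h_WT. Its groups did not overlap, and its log2 change was -0.17 (95% interval -0.31 to -0.019, limma adjusted p = 0.207). Dars, for aspartate, also lay lower without overlap, with 18.9 and 19.0 FPKM in Ch25h_KO and 19.9 and 20.2 FPKM in Ch25h_WT. Lars, the leucine enzyme, lay higher without overlap, with 30.3 and 29.6 FPKM in Ch25h_KO and 28.8 and 27.3 FPKM in Ch25h_WT. Eprs, which joins the glutamate and proline enzymes in a single protein, had 50.1 and 53.2 FPKM in Ch25h_KO and 52.4 and 51.1 FPKM in Ch25h_WT. Eprs and Rars, for arginine, had log2 changes of -0.0031 and -0.013, and both turned positive under median of ratios scaling. Qars, Iars and Mars, for glutamine, isoleucine and methionine, had log2 changes of 0.011, 0.055 and 0.086 with overlapping groups. The scaffold genes had no member past the threshold, and all 3 had negative log2 changes. Aimp2 had 21.2 and 18.4 FPKM in Ch25h_KO and 24.5 and 21.8 FPKM in Ch25h_WT (log2 change -0.22, limma adjusted p = 0.292). Aimp1 had 31.7 and 29.8 FPKM in Ch25h_KO and 32.0 and 33.3 FPKM in Ch25h_WT, and Eef1e1 overlapped between groups.

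**Figure D2:**
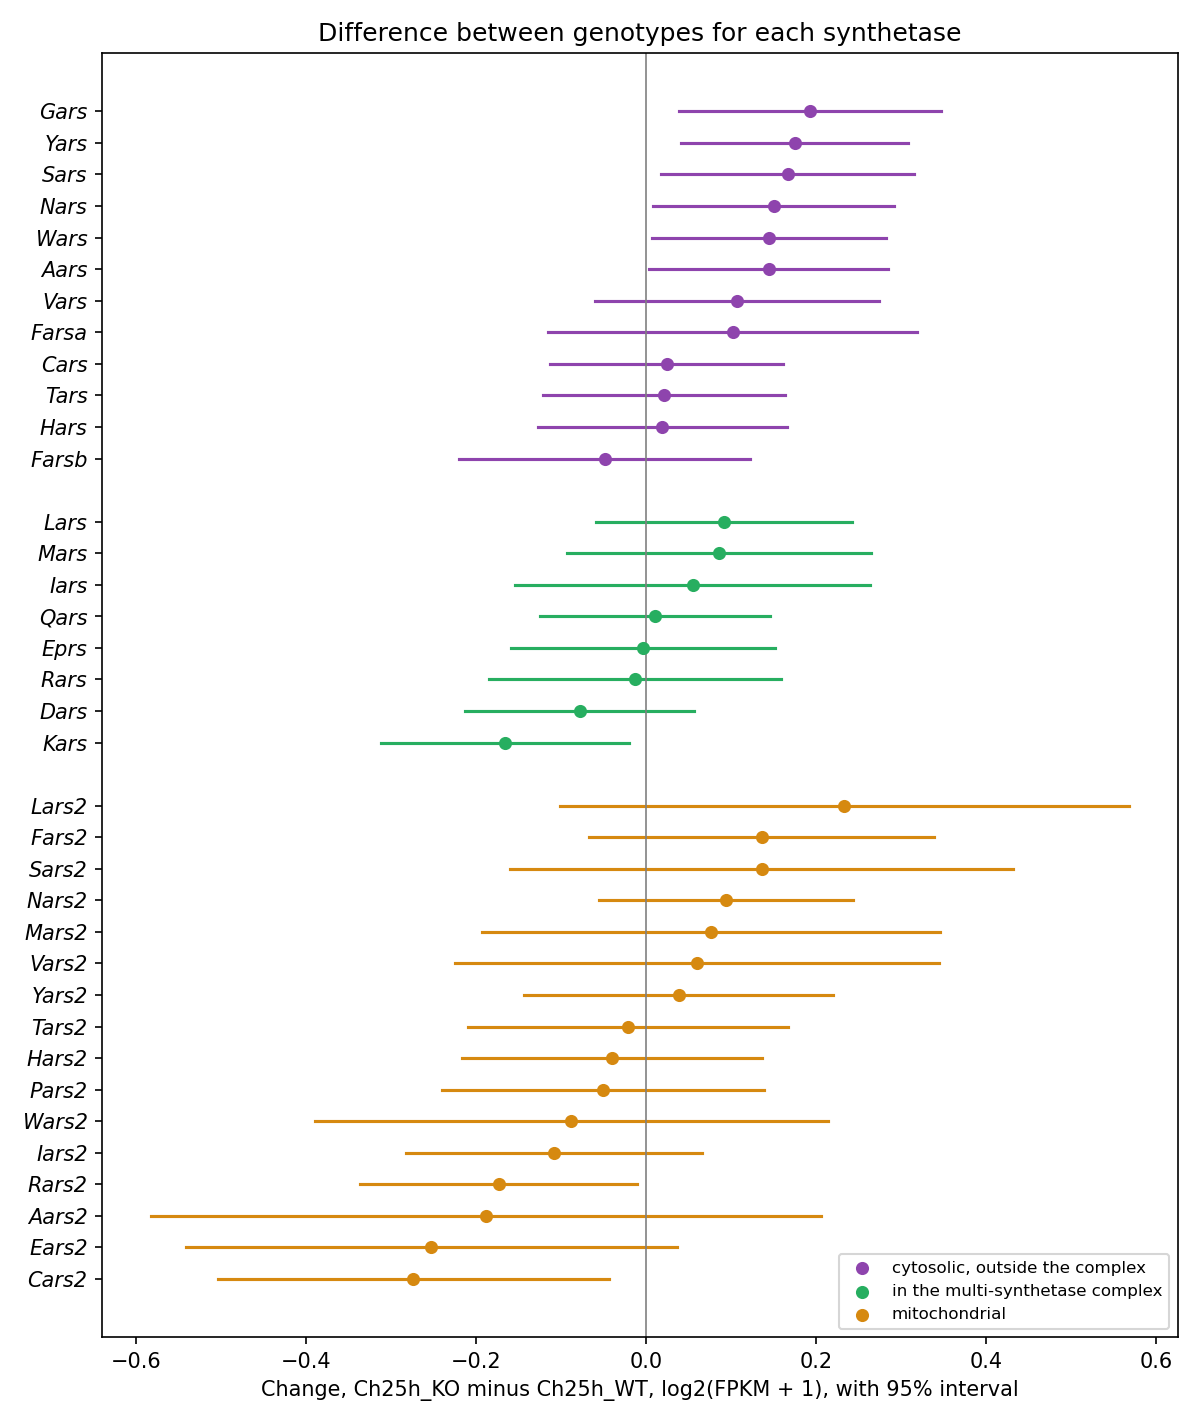
Difference between genotypes for each synthetase, Ch25h_KO minus Ch25h_WT on the log2(FPKM + 1) scale, with limma's 95% interval (2 libraries per group). Purple marks 12 cytosolic enzymes outside the complex, green the 8 of the complex and orange the 16 mitochondrial enzymes; 6 purple intervals lie above 0, and those of Kars, Rars2 and Cars2 lie below 0.

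**Figure D3:**
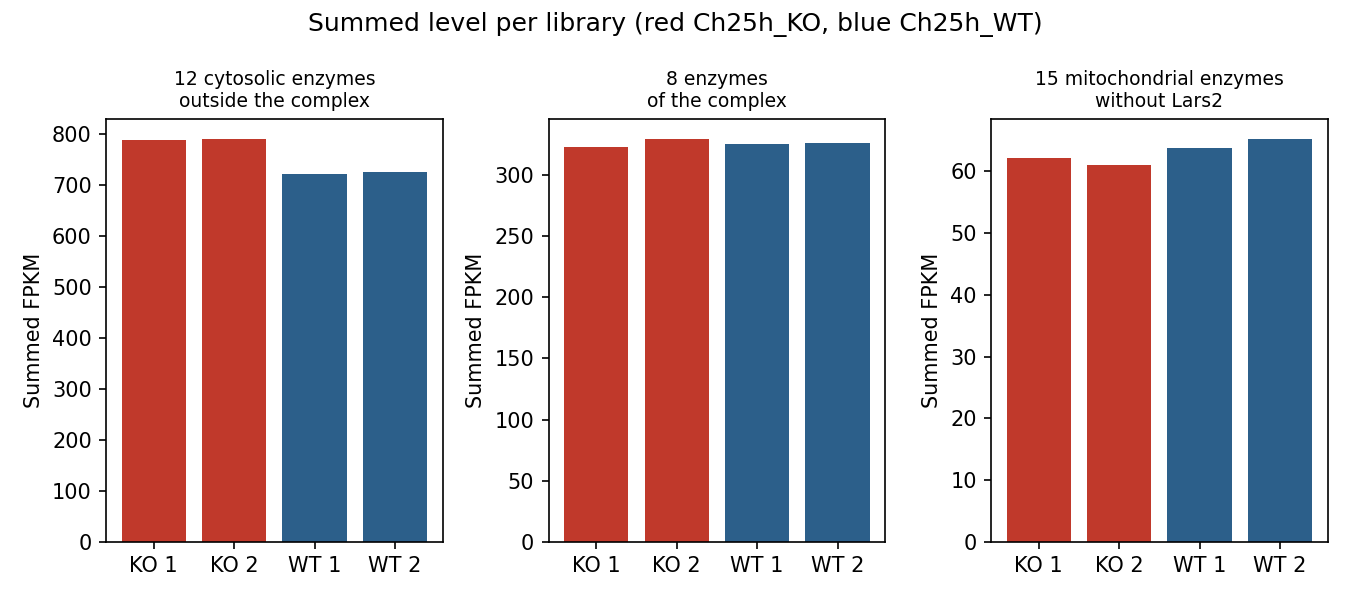
Summed FPKM per library of 12 cytosolic enzymes outside the complex, 8 enzymes of the complex and 15 mitochondrial enzymes without Lars2, with each vertical axis starting at 0. The Ch25h_KO bars (red) reach 789 and 789 FPKM outside the complex, against 721 and 725 FPKM in Ch25h_WT (blue). The bars of the complex overlap. Nars, Aars, Gars and Sars are the largest terms of the first sum.

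The split by complex membership overlaps with a split by ATF4. The 12 cytosolic genes often listed as ATF4 targets had a median log2 change of 0.12. Of the 12, 6 (50%) had unadjusted p under 0.05 on the higher side, against 9.38% of all loci. These 6 lay among the 8 ATF4-listed genes outside the complex, whose median was 0.15. None of the 4 ATF4-listed genes of the complex (Eprs, Iars, Lars and Mars) had unadjusted p under 0.05, at a median of 0.070. The 4 genes of neither list, Farsa, Farsb, Hars and Vars, had a median of 0.061 with none at unadjusted p under 0.05. The 4 genes of the complex outside the ATF4 list, Dars, Kars, Qars and Rars, had a median of -0.045. Of these, 1 (Kars) had unadjusted p under 0.05, on the lower side, where 11.5% of all loci stood. Differences between these small sets, drawn up with earlier results of these data known, were not tested.

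Other genes of the ATF4 pathway were compared next. Of 19 tested members, 1 passed over all loci, and 16 had unadjusted p under 0.05 on the higher side, or 84.2% against 9.38% of all loci. That count was 13 to 16 with any library left out. The median log2 change was 0.33. Chac1, a glutathione-degrading enzyme, rose in Ch25h_KO, with 32.9 and 33.1 FPKM in Ch25h_KO and 21.6 and 20.1 FPKM in Ch25h_WT (log2 change 0.64, limma adjusted p = 0.043). The pass was lost without any one library (adjusted p = 0.197 to 0.231), with a pseudocount of 0.1 (0.0812) and with no filter on low values (0.0850). Trib3, a pseudokinase induced by ATF4, had 30.1 and 29.3 FPKM in Ch25h_KO and 19.2 and 20.8 FPKM in Ch25h_WT (limma adjusted p = 0.066). Asns, which makes asparagine, had 105 and 108 FPKM in Ch25h_KO and 80.6 and 86.1 FPKM in Ch25h_WT (limma adjusted p = 0.104). Atf4 itself had 368 and 351 FPKM in Ch25h_KO and 289 and 314 FPKM in Ch25h_WT (limma adjusted p = 0.153). On the lower side were Aldh18a1, for proline synthesis, at 18.9 and 20.0 FPKM in Ch25h_KO and 23.9 and 23.8 FPKM in Ch25h_WT, and Atf3 (log2 change -0.082).

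Sequence upstream of these genes was read for the core letters of the C/EBP-ATF response element, TGATGNAA on either strand, in windows of 250 bases before and 50 bases after an annotated start (RefSeq, GRCm38.p6). Such windows were on hand for 13 cytosolic and 14 mitochondrial members. The letters were found in 5 of the 13 cytosolic windows (Aars, Gars, Iars, Tars and Yars) and in 0 of the 14 mitochondrial ones, against 4.51% of 27025 genes. All 5 were among the 8 ATF4-listed members with a window, and none of the 5 other cytosolic members had a match. A match is a description of letters, not evidence of binding. The E-box CACGTG, read by MYC and other factors, was in 4 cytosolic windows and 1 mitochondrial window, against 8.09% of genes. The windows of Yars, Gars and Aars are shown because these genes stood on the higher side and hold the letters, which are in capitals, read on the strand of the gene in either orientation. Their coordinates are of GRCm38.p6, another build than the mm9 of the expression table.
Yars (chr4:129189653-129189952, plus strand): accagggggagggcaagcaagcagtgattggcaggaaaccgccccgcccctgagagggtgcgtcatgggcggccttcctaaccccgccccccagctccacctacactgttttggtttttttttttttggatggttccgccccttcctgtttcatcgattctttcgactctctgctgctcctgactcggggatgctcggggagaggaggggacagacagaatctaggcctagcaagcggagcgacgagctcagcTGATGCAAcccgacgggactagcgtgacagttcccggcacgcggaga
Gars (chr6:55037751-55038050, plus strand): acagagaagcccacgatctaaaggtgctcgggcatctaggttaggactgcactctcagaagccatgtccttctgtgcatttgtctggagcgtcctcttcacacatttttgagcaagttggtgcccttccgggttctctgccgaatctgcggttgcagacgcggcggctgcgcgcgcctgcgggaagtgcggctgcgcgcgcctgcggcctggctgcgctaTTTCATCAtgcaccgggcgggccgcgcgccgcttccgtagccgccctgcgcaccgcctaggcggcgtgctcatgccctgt
Aars (chr8:111033592-111033891, plus strand): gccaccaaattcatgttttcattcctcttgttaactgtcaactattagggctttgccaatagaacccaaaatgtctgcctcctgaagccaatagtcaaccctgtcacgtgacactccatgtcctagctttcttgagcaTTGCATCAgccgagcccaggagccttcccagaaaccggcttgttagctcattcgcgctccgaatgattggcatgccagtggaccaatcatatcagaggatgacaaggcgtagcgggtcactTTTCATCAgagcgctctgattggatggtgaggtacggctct

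In the Gars window the letters begin 30 bases before the annotated start, and in the Yars window 3 bases after it. Aars has 2 matches, the first of them 112 bases before the start. The same letters in Iars and Tars, whose levels differed little between genotypes, are shown beside those of Asns, Chac1 and Trib3 from the ATF4 pathway, each with 11 bases on either side.
Iars (chr13:49682126-49682155, plus strand): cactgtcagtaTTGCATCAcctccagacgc
Tars (chr15:11399655-11399684, minus strand): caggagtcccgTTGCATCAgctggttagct
Asns (chr6:7693214-7693243, minus strand): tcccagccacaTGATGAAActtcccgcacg
Chac1 (chr2:119351038-119351067, plus strand): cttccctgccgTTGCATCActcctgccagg
Trib3 (chr2:152344028-152344057, minus strand): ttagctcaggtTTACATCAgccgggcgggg

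Holding the letters did not go with a single size of change. The log2 changes of the 5 synthetases with a match were 0.19 for Gars, 0.18 for Yars, 0.14 for Aars, 0.055 for Iars and 0.022 for Tars. Sars, with no match in its window, had a log2 change of 0.17. Nars and Wars, also on the higher side, were not among the genes with a match, and some cytosolic members had no window to read.

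Mitochondrial synthetases were measured less precisely. Their transcripts gave an approximate 37 to 2900 fragments per value, against 387 to 8303 for cytosolic ones, by the transcript lengths of GENCODE vM21. The median counting error this implies was 9.93% of the value for mitochondrial and 2.84% for cytosolic members, and it covers counting alone. The median difference between replicates on the log2 scale was 0.18 in Ch25h_KO and 0.13 in Ch25h_WT for mitochondrial members, and 0.037 and 0.046 for cytosolic ones.

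Of the mitochondrial members, Cars2 and Rars2 had unadjusted p under 0.05, both on the lower side. Cars2, for cysteine, had 2.55 and 3.12 FPKM in Ch25h_KO and 3.58 and 3.66 FPKM in Ch25h_WT (log2 change -0.27, 95% interval -0.50 to -0.044, limma adjusted p = 0.196). Rars2, for arginine, had 5.56 and 5.11 FPKM in Ch25h_KO and 6.23 and 6.05 FPKM in Ch25h_WT (log2 change -0.17, limma adjusted p = 0.224). Neither overlapped between groups, although in Cars2 the Ch25h_KO libraries differed from each other by more than the higher of them differed from the nearest Ch25h_WT library. Ears2, whose product charges both glutamate and, for later conversion, glutamine tRNA, had 2.07 and 1.93 FPKM in Ch25h_KO and 2.23 and 2.96 FPKM in Ch25h_WT. Iars2, for isoleucine, had 12.9 and 12.9 FPKM in Ch25h_KO and 13.3 and 14.6 FPKM in Ch25h_WT. Aars2, for alanine, had 2.97 and 2.53 FPKM in Ch25h_KO and 3.89 and 2.72 FPKM in Ch25h_WT, and its groups overlapped. Fars2 and Nars2, for phenylalanine and asparagine, were the mitochondrial genes that lay higher in Ch25h_KO without overlap. Fars2 had 4.38 and 4.97 FPKM in Ch25h_KO and 4.34 and 3.98 FPKM in Ch25h_WT, and Nars2 had 1.82 and 1.97 FPKM in Ch25h_KO and 1.70 and 1.72 FPKM in Ch25h_WT. The groups overlapped for Hars2, Mars2, Pars2, Sars2, Tars2, Vars2, Wars2 and Yars2, with log2 changes between -0.088 and 0.14.

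Lars2, the mitochondrial leucine enzyme, stood apart from its class in level and in spread. It had 74.26 and 60.04 FPKM in Ch25h_KO and 52.96 and 60.60 FPKM in Ch25h_WT. The groups overlapped, and the log2 change of 0.23, the highest of any member, had a 95% interval of -0.10 to 0.57 (limma adjusted p = 0.366). Rn45s, the locus of the ribosomal RNA precursor, was 399 and 336 FPKM in Ch25h_KO and 290 and 400 FPKM in Ch25h_WT, so within each group the library with more Rn45s also had more Lars2. The part of ribosomal RNA in the Lars2 value was not tested. With Lars2 the summed mitochondrial level was 136 and 121 FPKM in Ch25h_KO and 117 and 126 FPKM in Ch25h_WT. Without it the sum was 62.2 and 60.9 FPKM in Ch25h_KO, below the 63.7 and 65.1 FPKM in Ch25h_WT.

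Cytosolic and mitochondrial enzymes for the same amino acid were then compared within each library, as 17 pairs. The cytosolic transcript was the more abundant in every pair but leucine, with a median ratio of 13.8. Lars over Lars2 was 0.41 and 0.49 in Ch25h_KO and 0.54 and 0.45 in Ch25h_WT. The widest ratio was Nars over Nars2, at 82.4 and 75.5 in Ch25h_KO and 80.6 and 76.6 in Ch25h_WT, and after leucine the narrowest was Iars over Iars2, at 2.95 and 3.29 in Ch25h_KO and 2.80 and 2.74 in Ch25h_WT. The ratio was higher in both Ch25h_KO libraries than in both Ch25h_WT libraries for 6 pairs and lower for 1, Farsb over Fars2. Pairs are not independent, since Eprs and Fars2 each enter 2 of them. Among levels of single loci, 23.4% lay above and 30.3% below, and the difference between the groups in these ratios was not tested. Cars over Cars2 was 19.6 and 16.4 in Ch25h_KO and 13.8 and 13.7 in Ch25h_WT. Yars over Yars2 was 5.34 and 6.02 in Ch25h_KO and 5.19 and 5.14 in Ch25h_WT. In the first of these the mitochondrial member differed more between genotypes, and in the second the cytosolic one did.

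**Figure D4:**
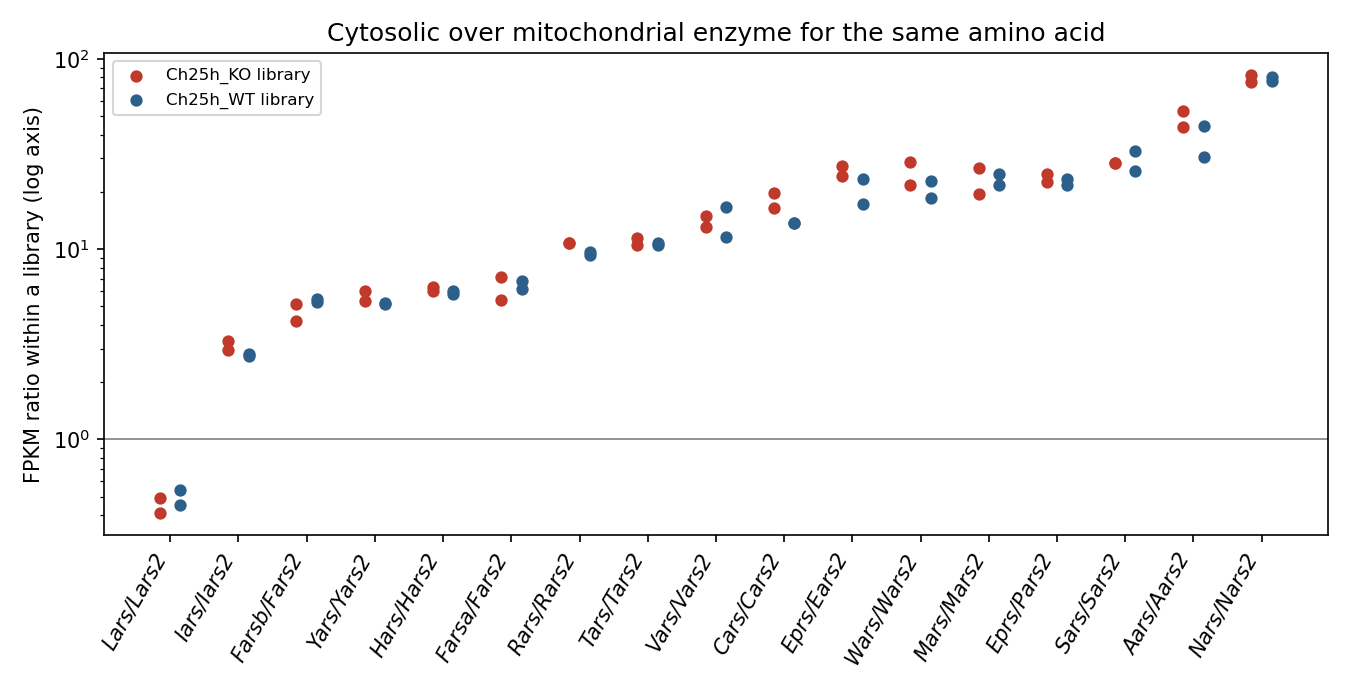
Ratio of cytosolic to mitochondrial FPKM within each library for 17 pairs of enzymes with the same amino acid, on a log axis, ordered by ratio; red points are Ch25h_KO libraries and blue points Ch25h_WT libraries. Lars over Lars2 lies below 1 in every library and Nars over Nars2 lies highest, at 75.5 to 82.4.

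Lists of related genes followed, and most of their shares at unadjusted p under 0.05 lay near or below the 20.9% of all tested loci. Of 9 tested eIF2 alpha kinase and phosphatase genes, 0 passed and 2 (22.2%) had unadjusted p under 0.05, both higher, namely Ppp1r15a and Ppp1r15b, which direct removal of the eIF2 alpha phosphate. Ppp1r15a had 42.4 and 41.0 FPKM in Ch25h_KO and 34.8 and 32.8 FPKM in Ch25h_WT (limma adjusted p = 0.114). Of 16 amino acid transporters, 0 passed, with 3 higher and 1 lower at unadjusted p under 0.05 (25.0%). The higher ones included Slc7a5, which imports large neutral amino acids, at 70.5 and 72.2 FPKM in Ch25h_KO and 57.4 and 52.9 FPKM in Ch25h_WT (limma adjusted p = 0.104), and Slc38a1 at a ratio of 1.21. Slc43a2 was lower at a ratio of 0.893.

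Among 26 cytosolic initiation and elongation factors 0 passed, with 1 higher and 5 lower at unadjusted p under 0.05 (23.1%, against 20.9% of all loci). Eif4g1, the scaffold of the cap-binding complex, had 98.1 and 100.5 FPKM in Ch25h_KO and 118 and 117 FPKM in Ch25h_WT (limma adjusted p = 0.122), and Eif3a had a ratio of 0.849. Eif1, which guides start codon choice, had a ratio of 1.10. Of 17 tested mitochondrial charging and translation factors, 0 passed, with 1 higher (Mto1) and 3 lower at unadjusted p under 0.05 (23.5%). Mtif2, the mitochondrial initiation factor, had 4.43 and 3.83 FPKM in Ch25h_KO and 5.22 and 5.65 FPKM in Ch25h_WT (limma adjusted p = 0.142). The release factor gene Mtrf1 had a ratio of 0.666. Of 30 genes of tRNA transcription and maturation, 0 passed and 2 were lower at unadjusted p under 0.05 (6.67%), Gtf3c5 and Polr3g, at ratios of 0.796 and 0.693. Polr3g cleared the filter only through the Ch25h_WT group, where it is high, and was below it without Ch25h_WT replicate 2, so it had to differ. Among 10 editing and processing factors 0 passed, and Trnt1, which adds the CCA end to tRNA, was lower at unadjusted p under 0.05, at a ratio of 0.859 (10.0% of the list). Of 14 tested MYC and mTORC1 regulators 0 passed, with Mxd1 and Flcn higher at unadjusted p under 0.05 (ratios 1.24 and 1.16; 14.3% of the list). None of 8 tested nuclear regulators of mitochondrial biogenesis passed with limma or had unadjusted p under 0.05.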

How the data were processed

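RNA-seq of 4 libraries (2 Ch25h_KO, 2 Ch25h_WT) was analysed. Bcl2fastq, TopHat2 2.0.14, Cufflinks 2.2.1 and the build mm9 are named in the submitters' processing notes, while settings, annotation and strandedness have no source here. As deposited by the authors, the table held 24192 lines whose values fit FPKM, although its header names no unit, and lines sharing a locus were joined into 23735 loci. The table left 0 per-sample columns unused.

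FPKM are not counts, so limma 3.58.1 in R 4.3.3 was run on log2(FPKM + 1) over 10074 loci averaging 1 FPKM or more, genotype as the only term, and Benjamini-Hochberg adjustment over all of them. Fold changes on this scale understate those of low genes, and ratios are of mean FPKM. The fit was tested on simulated data. Depth was implied from low values, of which 79.0% of 3355 loci under a mean of 0.2 FPKM held whole fragments after scaling (tolerance 0.01 fragments), and 634 of these had a transcript length. Older symbols were matched through RefSeq.

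Members and lists were chosen with earlier results of these data known. Named were members with adjusted p under 0.05, the 6 largest log2 changes each way, the 4 highest and 4 lowest levels, the paired enzymes, and up to 2 genes each way per list by p. Farsa, Farsb, Qars, Atf4, Asns, Rn45s, Eef1e1 and the members outside this rule were named after their values were seen. Alternatives were pseudocounts of 0.1 and 5, no filter, a mean of at least 5 FPKM, limma's trend and robust options, 2 scalings, a replicate block and leaving out each library.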

Additional observations from a re-analysis of the deposited data

How the results depend on the processing

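Over all loci the count of passes was 317 with a pseudocount of 5, 18 with no filter, 175 with a mean of at least 5 FPKM, 786 with limma's trend and robust options and 16 to 21 with a library left out, against 44. Of the synthetases, 1 passed with the trend and robust options (Gars) and 0 under every other alternative. Under median of ratios scaling 1 member was lower at unadjusted p under 0.05, against 3. The replicate numbers pair nothing in the labels, and same-numbered libraries deviated with a correlation of 0.0123. With the replicate block 6 loci passed, and 5 synthetases had unadjusted p under 0.05, 2 of them higher, while Chac1 and Cxcl9 did not pass with limma (adjusted p = 0.142 and 0.0747). With a library left out that count was 1 to 3, with 0 to 2 higher and 1 lower. The median log2 change of mitochondrial members then ran between -0.032 and 0.0081, above 0 without Ch25h_KO replicate 2, and the cytosolic median between 0.050 and 0.077.

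Members near 0 changed sign, and so did some further from it, such as Aars2 (log2 change -0.19) and Sars2 (0.14). Scaling by median of ratios gave 0.013 for Eprs and 0.0034 for Rars, and quantile normalization gave 0.0090 for Tars2. With a library left out the log2 change ran between -0.046 and 0.039 for Eprs, -0.0071 and 0.051 for Tars, -0.031 and 0.18 for Mars2, -0.12 and 0.023 for Pars2, -0.033 and 0.11 for Yars2, -0.10 and 0.0050 for Farsb, -0.024 and 0.13 for Iars, -0.075 and 0.049 for Rars, -0.098 and 0.056 for Tars2, -0.064 and 0.19 for Vars2, -0.21 and 0.033 for Wars2, -0.39 and 0.0097 for Aars2, -0.094 and 0.016 for Hars2, -0.017 and 0.29 for Sars2, -0.014 and 0.053 for Hars, and -0.10 and 0.021 for Eef1e1. Of 422 values of members under 12 alternatives, 22 changed sign, and the cause was not tested. Gars, Yars, Sars, Nars, Aars, Wars, Kars, Cars2 and Rars2 kept their sign in every alternative that gave a value.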
